A study of Mus musculus with 100 samples.

Results

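ERK1 peaks at promoters are the regions of the ERK1 ChIP-seq tables whose listed distance to the nearest transcription start site (TSS) was 500 bp or less in either direction. Of the 27931 ERK1 peaks in the table of vehicle (Veh) and KLA libraries, 4026 (14.4%) met this rule, and of the 14957 in the table of Day0 and Day4 libraries, 2367 (15.8%) did. Together these 6393 regions stand among 610301 regions in the 15 ChIP-seq tables of the series. ERK1 was immunoprecipitated from wild-type C57Bl6 bone marrow-derived macrophages (BMDMs) given Veh or KLA (Kdo2 lipid A, a ligand of the endotoxin receptor TLR4) for 6 h, and from wild-type C57Bl6 cells labelled as bone marrow cells, with osteoclast in their library names, at Day0 and Day4. Per the study's methods, osteoclast precursors were grown from bone marrow with M-CSF. They were then given M-CSF and RANKL, a factor needed for osteoclast differentiation, up to Day4. Both Day0 libraries and Day4 replicate 1 also carry NCoRWT in their library names, and Day4 replicate 2 does not. Each group held 2 libraries. The other measurements set beside ERK1 were p65, p300, Fosl2, PU.1, NCoR, HDAC3 and PGC1β in wild-type BMDMs with Veh or KLA, NCoR and PGC1β in wild-type BMDMs given an ERK inhibitor with KLA (ERKi_KLA), p300 at Day0 and Day4, and acetylation of histone H3 lysine 27 (H3K27ac). H3K27ac was measured in NCoR flox/flox BMDMs (WT) and NCoR flox/flox, LysMCre BMDMs (NKO) with Veh or KLA, in wild-type BMDMs given DMSO with Veh, DMSO with KLA or the HDAC3 inhibitor RGFP966 with KLA, and in PGC1b flox/flox BMDMs without and with LysMCre. LysMCre deletes in myeloid cells from the Lyz2 locus, so that the flox/flox controls carry the floxed alleles without Cre, and how complete deletion was is not measured by these libraries.

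ERK1 and its relative ERK2 are the last kinases of a mitogen-activated protein kinase cascade, which TLR4 and the receptors for M-CSF and RANKL switch on in macrophages and osteoclast precursors. Active ERK phosphorylates transcription factors such as the ETS protein Elk1 and proteins of the AP-1 family, and it can be crosslinked to chromatin with them. A promoter is the stretch at the TSS where general factors and RNA polymerase assemble. Many promoters of housekeeping genes are rich in G, C and the dinucleotide CpG, while those of inducible inflammatory genes more often hold a TATA box and sites for NFκB, AP-1 or interferon regulatory factors. H3K27ac marks active promoters and enhancers, p300 writes it, and the NCoR/HDAC3 complex is known for removing histone acetyl groups.

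The deposited annotation, which rests on the same distances as the choice of the peaks and so is a description, placed 3611 of 4026 (89.7%) in the Veh and KLA table and 2211 of 2367 (93.4%) in the Day0 and Day4 table at promoter-TSS. The rest lay in a 5′ UTR (141 and 53), an intron (199 and 68), an exon (29 and 17), at a transcription end or in a non-coding exon. The median peak centre sat at −41 bp and −55 bp from the TSS, 67.9% and 73.4% of centres were upstream of it, and 59.4% of centres in each table were within 100 bp of it. Peaks were 201 to 910 bp long (median 270 bp) and 201 to 832 bp long (median 271 bp). The 4026 peaks belonged to 3794 genes, of which 214 had more than 1 promoter peak. They covered 3547 of 21887 protein-coding RefSeq genes (16.2%). The 2367 peaks of the Day0 and Day4 table belonged to 2293 genes and covered 2158 protein-coding genes (9.86%). At the limit of the rule, the 105 peaks in the last 50 bp inside it had a median of 24.8 tags per 10 M mapped tags and a median log2 fold change with KLA of 0.23, and the 104 peaks in the first 50 bp outside it had 27.9 tags per 10 M and −0.11.

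The ERK1 libraries held 6.36 to 11.6 M mapped tags, and 8.43% to 11.1% of them fell in peaks with Veh or KLA and 2.79% to 6.46% at Day0 or Day4. A promoter peak held a median of 17 to 25 tags per library, so that single promoters were measured with wide counting error. Across promoter peaks, log2 levels of the 2 replicates correlated with r = 0.583 (Veh), 0.606 (KLA), 0.397 (Day0) and 0.415 (Day4). These correlations run over regions of the same libraries, and regions do not replicate each other. No pair of replicate libraries was a duplicate, since their counts differed by more than counting error (chi-square 3.01 to 5.14 per peak). Of 12 macrophage markers, 11 had an ERK1 promoter peak in the Veh and KLA table (all but Tyrobp), with a summed level of 635 to 727 tags per 10 M with Veh and 911 to 984 with KLA. No marker of B cells, T cells, erythroid cells or fibroblasts had one, and the neutrophil list had 2 of 7 (Camp and S100a8), with a summed level of 17.3 in both Veh libraries and 61.2 to 68.8 with KLA.

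To show what these promoters look like, the 150 bases before the TSS are given for 8 of them, in RefSeq's GRCm38.p6 (mm10) and in the direction of the gene. Saa3 (chr7:46715677-46715826, minus strand), Ptgs2 (chr1:150099881-150100030, plus), Acod1 (chr14:103046862-103047011, plus), Tnf (chr17:35202008-35202157, minus), Gbp5 (chr3:142496784-142496933, plus) and Ifit1 (chr19:34640739-34640888, plus) are promoters where ERK1 was called higher with KLA. Cebpa (chr7:35119143-35119292, plus) is one where it was called lower, and Cd68 (chr11:69666171-69666320, minus) one with a high ERK1 level and no call. Capitals mark every exact match, on either strand, of an NFκB motif, an ISRE (the interferon-stimulated response element), the AP-1 motif TGANTCA, the TATA box TATAAA or the GC box GGGCGG, which reads CCGCCC on the other strand.
Saa3: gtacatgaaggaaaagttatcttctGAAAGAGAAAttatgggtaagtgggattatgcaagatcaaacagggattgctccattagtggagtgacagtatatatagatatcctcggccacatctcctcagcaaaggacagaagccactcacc
Ptgs2: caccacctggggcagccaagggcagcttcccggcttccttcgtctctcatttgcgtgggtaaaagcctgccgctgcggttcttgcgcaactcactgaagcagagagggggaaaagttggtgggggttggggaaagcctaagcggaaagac
Acod1: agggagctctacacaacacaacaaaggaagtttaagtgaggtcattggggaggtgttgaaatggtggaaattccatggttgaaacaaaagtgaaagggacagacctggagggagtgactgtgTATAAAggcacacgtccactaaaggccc
Tnf: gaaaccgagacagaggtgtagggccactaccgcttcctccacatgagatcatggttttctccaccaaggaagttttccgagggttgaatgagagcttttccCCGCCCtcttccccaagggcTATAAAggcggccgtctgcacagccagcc
Gbp5: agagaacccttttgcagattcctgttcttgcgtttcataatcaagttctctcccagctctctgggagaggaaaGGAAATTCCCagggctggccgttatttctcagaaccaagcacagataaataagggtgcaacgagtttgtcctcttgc
Ifit1: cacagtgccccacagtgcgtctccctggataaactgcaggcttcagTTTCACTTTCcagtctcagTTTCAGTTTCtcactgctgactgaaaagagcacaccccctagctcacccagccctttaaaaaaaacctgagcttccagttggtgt
Cebpa: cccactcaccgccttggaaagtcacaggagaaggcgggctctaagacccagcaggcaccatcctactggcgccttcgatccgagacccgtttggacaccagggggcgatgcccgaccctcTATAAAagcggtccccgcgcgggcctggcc
Cd68: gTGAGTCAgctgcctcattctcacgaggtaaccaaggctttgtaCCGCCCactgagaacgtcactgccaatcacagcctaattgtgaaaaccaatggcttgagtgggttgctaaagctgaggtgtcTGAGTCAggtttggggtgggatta
The TATA box stood with its first base at −28 in Acod1, −29 in Tnf and −30 in Cebpa. The matches of the ISRE in Ifit1 began at −104 and −85, that in Saa3 at −125, and the match of the NFκB motif in Gbp5 at −77. In Ptgs2 none of the 5 motifs matched these 150 bases. Over the same window of all 32851 RefSeq promoters, 4.60% held the NFκB motif, 1.59% the ISRE, 4.24% the AP-1 motif, 7.57% the TATA box and 28.6% the GC box.

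To ask how TLR4 activation changed ERK1 at promoters, KLA was compared with Veh by edgeR's quasi-likelihood test over all peaks of the table, a peak being called at an adjusted p under 0.05 and a change of more than 2-fold. ERK1 was called higher at 115 promoter peaks (2.86%), where 10.3% of all ERK1 peaks were called higher, and lower at 79 (1.96%), where 2.53% of all were called lower. The promoters with the lowest p among those called higher were those of Mir155hg, Saa3 and Adgre1, and among those called lower those of Mir7687 and Gm5086. The median log2 fold change was −0.15 over promoter peaks and 0.36 over the other ERK1 peaks, and 2263 promoter peaks (56.2%) had a fitted value below 0. TMM scaling moved the median of all peaks from 0.26 to 0.06 and gave 70 promoter peaks called higher and 131 lower, so that the share of calls that were higher went from 59.3% to 34.8%. Under TMM scaling 2266 of all 27931 ERK1 peaks were called higher and 1097 lower. Without KLA replicate 1 the calls were 19 higher and 41 lower, and without KLA replicate 2 they were 29 and 24.

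At some of the promoters called higher there was next to no ERK1 without KLA. Mir155hg, the host gene of the inflammatory microRNA miR-155, had 0 tags in both Veh libraries and 151 and 178 tags per 10 M in the KLA libraries, at least 82.1-fold higher against a floor of 3 tags over the Veh group (adjusted p = 0.00201). Saa3, an acute-phase protein, had 0 in both Veh libraries and 61.5 and 51.7 with KLA (at least 28.4-fold, adjusted p = 0.00524). The peak of Saal1, next to Saa3 on chromosome 7 and centred at −492 bp, had 0 and 4.62 with Veh and 82.4 and 65.3 with KLA (log2 fold change 4.74 ± 0.77 SE, adjusted p = 0.00733). At all 3 promoters ERK1 was near the floor before KLA, and the groups were far apart.

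Ptgs2, encoding cyclooxygenase 2, had 7.87 and 6.94 tags per 10 M with Veh and 82.4 and 80.3 with KLA (log2 fold change 3.44 ± 0.53, adjusted p = 0.00620). Acod1, which makes itaconate, had 12.6 and 1.16 with Veh and 113 and 114 with KLA (4.16 ± 0.65, adjusted p = 0.00637). The chemokine gene Ccl5 had 0 and 5.78 with Veh and 52.9 and 110 with KLA (4.58 ± 0.80, adjusted p = 0.00891). In these the Veh libraries kept a low ERK1 signal, and both KLA libraries lay well above both of them, with a wide gap between the 2 KLA libraries only at Ccl5.

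Genes of other roles were in the same group. Socs3, an inhibitor of cytokine signalling, had 4.72 and 10.4 with Veh and 88.5 and 70.8 with KLA (3.32 ± 0.56, adjusted p = 0.00811). Bcl2a1a, a survival factor with near-identical gene copies among which short reads are hard to place, had 4.72 and 5.78 with Veh and 61.5 and 68.1 with KLA (3.57 ± 0.59, adjusted p = 0.00803). Itgal, the alpha chain of the integrin LFA-1, had 14.2 and 6.94 with Veh and 84.8 and 77.6 with KLA (2.97 ± 0.53, adjusted p = 0.00938). Adgre1, the macrophage antigen F4/80, started from a higher level than the others, with 25.2 and 37.0 with Veh and 186 and 159 with KLA (2.45 ± 0.36, adjusted p = 0.00532). These 10 promoters were called with any one of the 4 libraries left out.

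**Figure D1:**
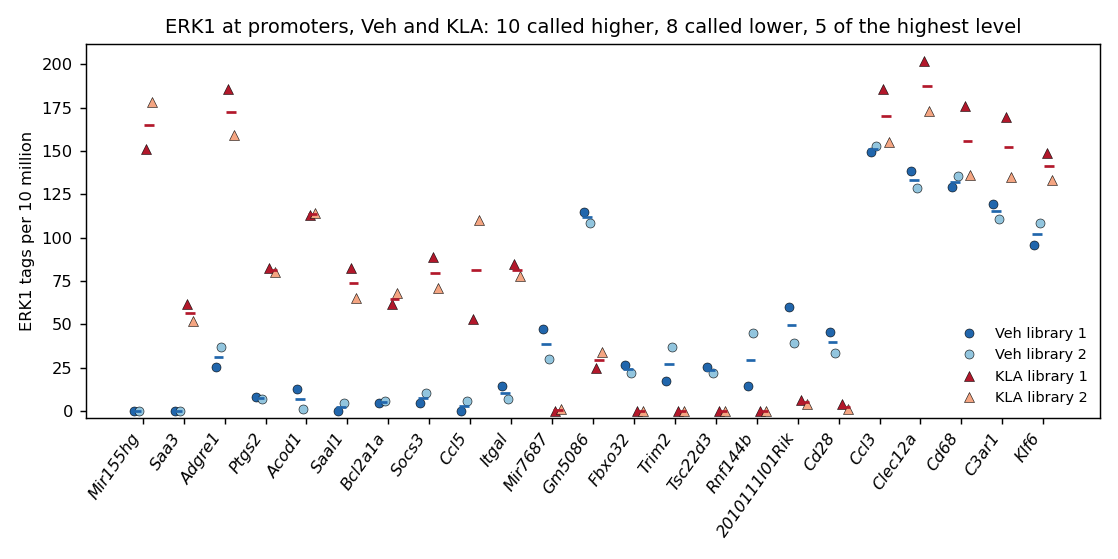
ERK1 tags per 10 M mapped tags at the promoters of the genes named by rank in the comparison of KLA with Veh, with 1 point per library (circles for Veh, triangles for KLA) and a bar at the mean of each group. For the promoters called higher both KLA points lie above both Veh points, for those called lower they lie below, and for the most strongly bound promoters, such as Ccl3 and Cd68, the points of the groups lie close together.

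At the promoters named here that were called lower, the KLA libraries lay below both Veh libraries, at levels from 0 to 34.0 tags per 10 M. Cebpa, encoding the myeloid transcription factor C/EBPα, had 73.9 and 59.0 tags per 10 M with Veh and 14.8 and 12.2 with KLA (log2 fold change −2.28 ± 0.51, adjusted p = 0.0173). Cd28, a T-cell costimulatory receptor gene, had 45.6 and 33.5 with Veh and 3.69 and 1.36 with KLA (−3.86 ± 0.80, adjusted p = 0.0143). The predicted gene Gm5086 had the highest level of this group, 115 and 109 with Veh and 24.6 and 34.0 with KLA (−1.93 ± 0.39, adjusted p = 0.0130).

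At 4 further promoters both KLA libraries had 0 tags. These were Fbxo32, a ubiquitin ligase subunit of muscle atrophy (26.7 and 22 with Veh, at least 12.4-fold lower with KLA), Tsc22d3, the glucocorticoid-induced leucine zipper (25.2 and 22, at least 12.0-fold lower), Trim2 (17.3 and 37.0, at least 14.8-fold lower) and Rnf144b (14.2 and 45.1, at least 16.5-fold lower), the last 2 encoding ubiquitin ligases. At Mir7687, whose peak is annotated to a transcription end, 47.2 and 30.1 with Veh stood against 0 and 1.36 with KLA, a ratio of 57.8 with a 95% counting interval of 9.95 to 2322. The peak of 2010111I01Rik had 59.8 and 39.3 with Veh and 6.15 and 4.08 with KLA (−3.22 ± 0.67). Of the 8 called lower with the lowest p, to which Cebpa does not belong, Mir7687 was called with any 1 library left out. Fbxo32 and Tsc22d3 were not called without KLA replicate 1 or 2 (adjusted p = 0.0560 to 0.0697), Gm5086 not without KLA replicate 1 (0.0558), Cd28 and 2010111I01Rik not without KLA replicate 2 (0.0579 and 0.0594), and Trim2 and Rnf144b not without Veh replicate 2 (0.134 and 0.207). Cebpa was not called without KLA replicate 1 or 2 (adjusted p = 0.0608 and 0.0826).

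The 5 promoters with the highest mean ERK1 level were not called. Over all promoter peaks, the highest quartile of level held 38 of the 115 called higher and 9 of the 79 called lower, and the lowest held 28 and 40. Ccl3, a chemokine gene, had 150 and 153 tags per 10 M with Veh and 186 and 155 with KLA (log2 fold change 0.17 ± 0.27, adjusted p = 0.690). Cd68, a lysosomal glycoprotein of macrophages, had 129 and 135 with Veh and 176 and 136 with KLA (0.24 ± 0.29, adjusted p = 0.595). Clec12a, an inhibitory lectin receptor, had 138 and 128 with Veh and 202 and 173 with KLA (0.49 ± 0.28, adjusted p = 0.240). The complement receptor C3ar1 (120 and 111, then 170 and 135) and the zinc finger factor Klf6 (96.0 and 109, then 149 and 133) likewise missed the threshold, with adjusted p = 0.364 and 0.305.

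The promoter peaks were grouped by the roles of their genes, to be read beside the 2.86% of all promoter peaks called higher and 1.96% called lower. No test between groups was made. Of 36 cytokine, chemokine and mediator genes, 22 had an ERK1 promoter peak, and 11 of these were called higher and 0 lower (Acod1, Ccl5, Cxcl10, Cxcl11, Cxcl2, Edn1, Il12b, Mir155hg, Nos2, Ptgs2 and Tnf). Their median log2 fold change was 1.78 and 21 of the 22 lay above 0, beside a median of −0.15 over all promoter peaks. Il6 (log2 fold change 1.90), Csf1 (1.73) and Ccl2 (−0.33) were among the members that missed the threshold. With TMM scaling 9 of the 22 were called higher.

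Of 38 interferon response genes, 24 had promoter peaks, with 8 genes called higher and 0 lower (Adar, Gbp2, Gbp5, Ifit1, Isg15, Mx1, Oasl1 and Rsad2) and a median of 0.96. Mx1, an antiviral GTPase, had 28.3 and 8.09 with Veh and 84.8 and 117 with KLA (2.52 ± 0.54, adjusted p = 0.0154). Gbp5, a guanylate-binding protein that promotes inflammasome assembly, had 25.2 and 13.9 with Veh and 87.3 and 85.7 with KLA (2.17 ± 0.46, adjusted p = 0.0155). Ifit1, which binds viral RNA, had 14.2 and 22 with Veh and 63.9 and 87.1 with KLA (2.03 ± 0.48, adjusted p = 0.0211). All 3 kept their groups apart, and with TMM scaling 3 genes of the list were called. Without KLA replicate 2 none of the 3 was called (adjusted p = 0.0754, 0.0592 and 0.120), nor were Gbp5 without KLA replicate 1 (0.0581) and Ifit1 without Veh replicate 1 (0.0517).

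Of 28 genes for NFκB subunits and inhibitors, 20 had promoter peaks and 3 were called higher, with a median of 0.59. Nfkbiz, encoding the inducible cofactor IκBζ, had 9.44 and 5.78 with Veh and 51.6 and 51.7 with KLA at 1 of its 2 promoter peaks (2.77 ± 0.61, adjusted p = 0.0164). Tnip3 (1.54, adjusted p = 0.0388) and Irak3 (2.10, adjusted p = 0.0459), both inhibitors of this pathway, were not called with TMM scaling, and each was called in 1 of the 4 fits that left out a library. Nfkbiz was not called without KLA replicate 1 or 2 (adjusted p = 0.0511 and 0.0553). Among 46 genes of the ERK cascade and its feedback, 19 had promoter peaks and only the ETS repressor gene Etv6 was called, with 4.72 and 11.6 with Veh and 49.2 and 65.3 with KLA (2.74 ± 0.61, adjusted p = 0.0172, or 0.0805 without KLA replicate 2). The kinase gene Map2k2 (−1.64, adjusted p = 0.0835) missed the threshold.

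Of 35 AP-1, ATF and immediate early genes, 17 had promoter peaks, with 0 called higher and 2 lower and a median of 0.26. Those 2 were Zfp36l2, encoding an RNA-decay factor (75.5 and 65.9 with Veh, 20.9 and 6.81 with KLA, log2 fold change −2.32 ± 0.56, adjusted p = 0.0228), and the growth regulator Myc (36.2 and 31.2, then 3.69 and 8.17, −2.49 ± 0.73, adjusted p = 0.0439). Of 28 macrophage identity genes, 22 had promoter peaks, with 2 called higher (Adgre1 and Mpeg1), 3 lower (Apoe, Cebpa and Runx1) and a median of 0.24. Mpeg1 and Runx1 each had another promoter peak that was not called, at log2 fold changes of 0.33 and 1.05. Apoe had 33.0 and 49.7 with Veh and 3.69 and 8.17 with KLA (−2.79 ± 0.70, adjusted p = 0.0259). Both Adgre1 and Apoe mark macrophages, and ERK1 was called in opposite directions at their promoters. Without KLA replicate 2, Zfp36l2, Myc and Apoe were not called (adjusted p = 0.119, 0.0789 and 0.0514), nor were Myc and Apoe without KLA replicate 1 (0.172 and 0.108), Myc without Veh replicate 1 (0.0622) and Apoe without Veh replicate 2 (0.0649). Of 36 osteoclast genes, 9 had promoter peaks in this table. Sbno2 and Snx10 were called higher, each at only 1 of its promoter peaks and neither of them with TMM scaling.

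In the housekeeping groups 0 to 2 calls were made per group, too few to set apart from the shares called over all promoter peaks. The cytosolic ribosomal protein genes (32 with a promoter peak), the mitochondrial ones (19), splicing genes (23), genes of the NCoR, HDAC3 and PGC1 complexes (5) and small RNA host genes (5) had 0 calls, with medians of −0.22, −0.28, −0.16, −0.36 and −0.39. Oxidative phosphorylation genes (22) had a median of −0.42 with 18 of 22 peaks below 0 and 1 call, Ndufs6 of complex I, with 33.0 and 41.6 with Veh and 7.38 and 4.08 with KLA (−2.66 ± 0.70, adjusted p = 0.0304). Proteasome genes (18) had a median of 0.37 and 1 call, Psma6 (1.28 ± 0.38, adjusted p = 0.0447), which was not called with TMM scaling or with any 1 library left out. Ndufs6 was called in 1 of those 4 fits, the one without Veh replicate 1. The zinc finger genes named Zfp (76) had a median of −0.24 and 2 calls, both lower.

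Replication-dependent histone genes stood lowest among the groups. Of 15 promoter peaks 13 lay below 0, the median was −0.77, and 2 were called lower. Hist1h1c had 23.6 and 17.3 with Veh and 0 in both KLA libraries (at least 10.3-fold lower), and Hist1h4j had 39.3 and 40.5 with Veh and 4.92 and 10.9 with KLA (−2.33 ± 0.67, adjusted p = 0.0413). With TMM scaling 6 were called lower, among them Hist1h4f (99.1 and 91.3, then 28.3 and 47.6). Hist1h1c was not called with any 1 library left out (adjusted p up to 0.118), nor Hist1h4j without KLA replicate 1 or 2 (0.169 and 0.0698). These genes form a multigene family of similar sequence, in which reads can be hard to assign.

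**Figure D2:**
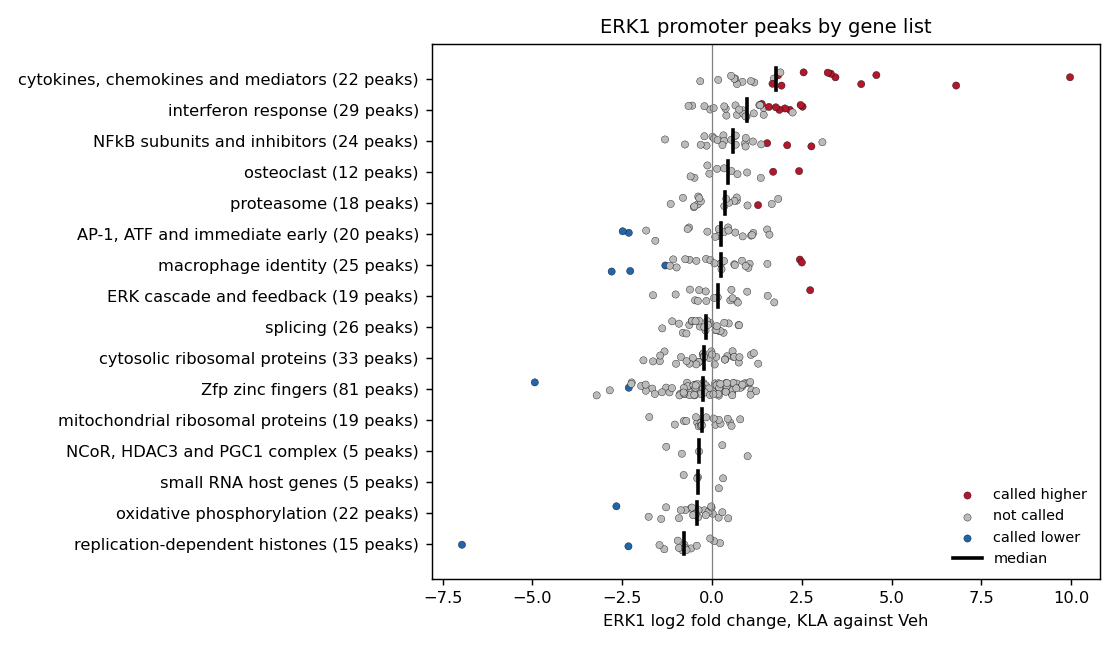
Log2 fold change of ERK1, KLA over Veh, at each promoter peak of the gene groups, with 1 point per peak, a bar at each group's median and called peaks in red (higher) or blue (lower). Fitted values of peaks at 0 tags in a group depend on the prior count. Cytokine and interferon response promoters lie mostly above 0, with medians of 1.78 and 0.96, while histone and oxidative phosphorylation promoters lie mostly below 0.

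The difference between promoters and other ERK1 peaks moved with base composition. Over all peaks the median log2 fold change of promoters was lower than that of other peaks by 0.51, and promoter peaks had a median GC content of 63.5% (observed to expected CpG of 0.80) against 46% (0.20) in other peaks. Within 7 bins of GC content the difference between promoter and other peaks ran from −0.17 to 0.07. In the bin under 40% GC the medians were 0.89 for 74 promoter peaks and 1.06 for 4062 other peaks, and 20.3% and 21.6% of them were called higher. In the bin from 70% GC they were −0.29 for 1005 promoter peaks and −0.31 for 186 others, and 0.995% and 2.15% were called higher.

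The libraries showed the same pattern one by one. At promoter peaks under 40% GC the median level was 28.3 and 24.3 tags per 10 M with Veh and 43.0 and 35.4 with KLA. At promoter peaks from 70% GC it was 29.9 and 27.7 with Veh and 25.8 and 23.1 with KLA. In the first class both KLA libraries were above both Veh libraries, and in the second both were below. The promoter peaks called higher had a median GC content of 50.5%, those called lower 60.5%. Whether the gradient follows the treatment or a GC bias of the libraries cannot be told apart, since both KLA libraries lay on one side.

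The peak caller's lists differed between promoters and other peaks. Of the promoter peaks, 2005 (49.8%) had been called by the authors' peak caller with Veh only, 1271 (31.6%) with KLA only and 750 (18.6%) with both, against 26%, 49.2% and 24.8% of other ERK1 peaks. Among peaks called in both conditions, the median log2 fold change was 0.05 at 750 promoter peaks and 0.06 at 5932 others. Peaks called in both conditions are chosen by their levels in both, which limits how far they can differ, so these medians are a description. At these 750 promoter peaks, edgeR's test called ERK1 higher with KLA at 14 and lower at 3. Peaks listed in 1 condition only were likewise chosen by levels in the same libraries, which favours that condition. Its part in the calls was not tested. Promoters held 15.2% and 15.3% of all tags in ERK1 peaks in the Veh libraries and 12.4% in both KLA libraries, a difference of −2.84 percentage points (two-sided exact permutation p = 0.333, the smallest that 2 against 2 libraries allow). By distance, the median log2 fold change was 0.24 between the promoter limit and 2000 bp from the TSS, 0.36 from there to 10000 bp, 0.38 from there to 50000 bp and 0.34 farther away.

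**Figure D3:**
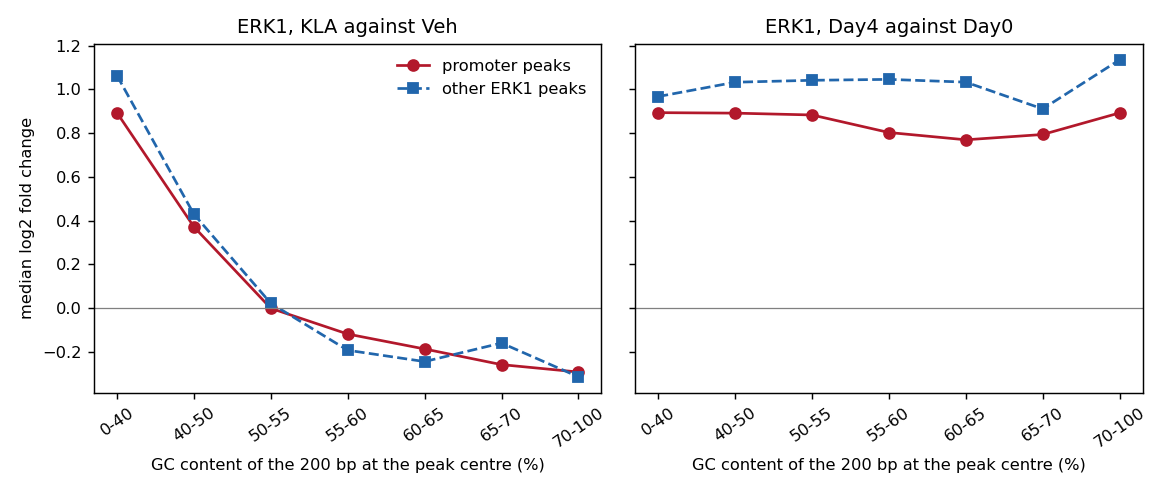
Median log2 fold change of ERK1 against GC content of the 200 bp at the peak centre, for promoter peaks and for other peaks, with KLA over Veh and Day4 over Day0 drawn apart. With KLA both lines descend together from about 0.89 and 1.06 to −0.29 and −0.31, and at Day4 the promoter line stays between 0.77 and 0.89 with no such descent.

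Short motifs in the 200 bp around the peak centre differed in share between the called promoters and the rest. The NFκB motif was in 18.3% of the 115 promoter peaks called higher, 1.27% of the 79 called lower and 8.62% of all promoter peaks. The ISRE was in 16.5%, 0% and 3.43%, the AP-1 motif TGANTCA in 15.7%, 3.8% and 6.68%, and the TATA box TATAAA in 17.4%, 10.1% and 3.95%. These 4 motifs were thus most frequent in the promoters called higher. In a window of 100 bp the NFκB motif was in 10.4%, 0% and 4.25%.

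Among motifs of housekeeping promoters, the GC box, the NRF1 motif and the ETS motif were less frequent in both called classes than in all promoter peaks. They were least frequent in those called higher. The GC box GGGCGG was in 26.1% of those called higher, 45.6% of those called lower and 56.7% of all, the NRF1 motif GCGCNTGCG in 2.61%, 7.59% and 10.8%, and the ETS motif CCGGAAGT in 1.74%, 2.53% and 8.15%. The PU.1 motif GAGGAAGT was in 8.70%, 10.1% and 5.19%. Away from promoters the AP-1 motif was in 25.5% of ERK1 peaks, the ETS motif in 0.535% and the GC box in 5.78%. All motifs were searched on both strands as exact letters, the CpG-rich ones follow GC content by their letters, and the ETS and PU.1 motifs share the core GGAAGT. No test was made of these shares.

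ERK1 promoters were shared with most of the other factors. A peak of NCoR had its centre within 500 bp of 76.1% of the 4026 ERK1 promoter peaks, HDAC3 of 75.3%, p65 of 71.6%, p300 of 69.5%, PU.1 of 63.8%, PGC1β of 59.6% and Fosl2 of 42.1%. For each factor the share was higher at the other ERK1 peaks, from 69.0% (Fosl2) to 87.3% (p300). All 7 were present at 890 ERK1 promoter peaks (22.1%), against 47.8% of the other ERK1 peaks, and none at 143 (3.55%). ERK1 was lower where fewer factors were found, with a median of 21 tags per 10 M at promoters with 1 factor and 41.8 at those with 7. The median log2 fold change of ERK1 with KLA was −0.35 at promoters with none of the factors, −0.50 at those with 1 and 0.12 at those with 7. From the lowest to the highest quartile of ERK1 level, the share with a Fosl2 peak went from 25.6% to 67.3% and that with an NCoR peak from 56.3% to 94.4%.

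At these shared promoters the factors' own response to KLA split with that of ERK1. p65, the NFκB subunit that TLR4 sends to the nucleus, was tested at 2832 ERK1 promoters, of which 563 were called higher (57.0% of all p65 regions were) and 285 lower (5.43% were). At the 101 of them where ERK1 was called higher, p65 was called higher at 90 and lower at 2, with a median log2 fold change of 2.89, and at the 52 where ERK1 was called lower p65 was called lower at 27 and higher at 0, with a median of −1.08. The p65 comparison depended on scaling, with 174 higher and 1646 lower under TMM scaling (65 higher and 6 lower at the first group). Over all 52629 p65 regions TMM scaling gave 14540 higher and 11205 lower. The count of calls also moved when a single p65 library was left out. The 3403 p65 promoter regions without an ERK1 promoter peak had 491 called higher and 661 lower with library totals.

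p300, a histone acetyltransferase, was called higher at 278 of 2746 ERK1 promoters (42.1% of all p300 regions were called higher) and lower at 391 (12.9% were called lower). It was called higher at 77 and lower at 1 of 101 regions where ERK1 was called higher, and lower at 38 of 53 where ERK1 was called lower. TMM scaling gave 162 higher and 1216 lower (22267 and 16245 of all 67998 p300 regions). The 3198 p300 promoter regions without an ERK1 promoter peak had 347 called higher and 730 lower with library totals. Fosl2, an AP-1 subunit, was called higher at 73 of 1637 (11.4% of all) and lower at 40 (4.19% of all). The Fosl2 count rested on single libraries, with 0 calls without either Veh library, 338 without KLA replicate 1 and 660 without KLA replicate 2, and TMM scaling gave 150 higher and 147 lower. Fosl2 was called higher at 41 of 79 regions where ERK1 was called higher and lower at 12 of 30 where ERK1 was called lower. Under TMM scaling 5933 of all 31283 Fosl2 regions were called higher and 3027 lower. The 1184 Fosl2 promoter regions without an ERK1 promoter peak had 25 called higher and 81 lower with library totals. PU.1, the ETS factor that defines myeloid cells, was called higher at 40 of 2503 (4.53% of all) and lower at 231 (21.7% of all), or 99 and 76 under TMM scaling. At regions where ERK1 was called higher, PU.1 was called higher at 24 of 66, and where ERK1 was called lower, PU.1 was called lower at 24 of 42. Under TMM scaling 4629 of all 50690 PU.1 regions were called higher and 5365 lower. The 3221 PU.1 promoter regions without an ERK1 promoter peak had 20 called higher and 439 lower with library totals.

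The corepressor proteins and PGC1β followed the same split. NCoR was called higher at 226 of 3007 ERK1 promoters (23.4% of all NCoR regions) and lower at 341 (16.7% of all), HDAC3 higher at 252 of 2980 (27.5% of all) and lower at 189 (11.3% of all), and PGC1β higher at 170 of 2332 (16.4% of all) and lower at 94 (6.35% of all). Among promoter regions without an ERK1 promoter peak, NCoR was called higher at 307 of 3250 and lower at 408. For HDAC3 these counts were 312 and 192 of 2893, and for PGC1β 65 and 169 of 2250. Where ERK1 was called higher, NCoR was called higher at 69 of 104 (lower at 2), HDAC3 at 67 of 100 and PGC1β at 58 of 82. Where ERK1 was called lower, NCoR was called lower at 33 of 51, HDAC3 at 27 of 46 and PGC1β at 20 of 53. TMM scaling gave 176 higher and 338 lower for HDAC3 (11800 and 7913 of all 48502 regions) and 149 and 146 for PGC1β (7227 and 4170 of all 45675). Total calls at these promoters were 284 and 266 without NCoR KLA replicate 1 or 2. For HDAC3 they were 98 and 100 without Veh replicate 1 or 2 and 665 without KLA replicate 1, and for PGC1β they were 101 and 75 without Veh replicate 1 or 2 and 493 without KLA replicate 2.

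**Figure D4:**
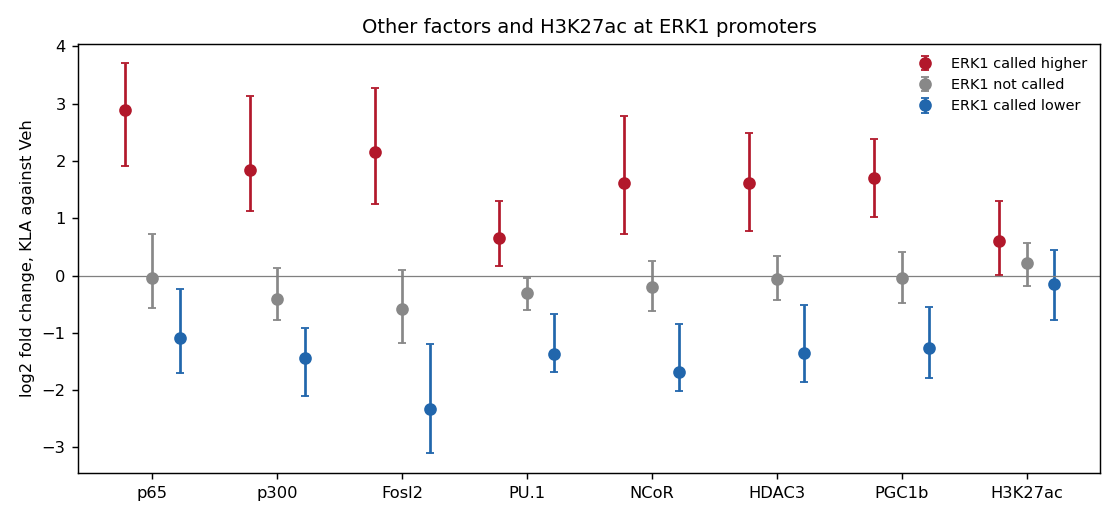
Median log2 fold change of each factor and of H3K27ac with KLA at promoters where ERK1 was called higher, not called or called lower, with 1 point per class and a whisker over the middle 50 percent of regions. For p65, p300, Fosl2, PU.1, NCoR, HDAC3 and PGC1β the class called higher for ERK1 lies above 0 (0.66 to 2.89) and the class called lower lies below it (−1.08 to −2.33).

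Base composition also moved with the other factors at these promoters. Between promoters under 50% GC and those from 70% GC, the median log2 fold change with KLA went from 1.29 to −0.29 for p65, from 0.32 to −0.48 for p300, from 0.22 to −0.84 for Fosl2 and from 0.49 to −0.25 for PGC1β. It went from −0.05 to −0.40 for PU.1, from 0.07 to −0.15 for NCoR and from 0.16 to −0.04 for HDAC3. The part of GC content in these responses was not tested further.

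Single promoters showed how far the factors moved together. At Acod1 and Ccl5 all 7 factors were called higher. At Ccl5, NCoR had 0 tags in both Veh libraries and 292 and 223 tags per 10 M with KLA, and p65 had 6.13 and 0.932 with Veh and 390 and 415 with KLA. At Ptgs2, p65 had 14.0 and 28.0 with Veh and 214 and 249 with KLA (log2 fold change 3.47 ± 0.31, adjusted p = 6.45e-06), and NCoR had 46.6 and 44.7 with Veh and 165 and 158 with KLA (1.82 ± 0.24, adjusted p = 0.000323). In each of these the KLA libraries stood far above the Veh libraries for activators and corepressor alike.

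At Cd28 all 7 factors were called lower, p65 going from 46.4 and 78.3 with Veh to 5.34 and 4.79 with KLA. At Cebpa, NCoR had 232 and 326 with Veh and 53.5 and 39.4 with KLA (−2.59 ± 0.26, adjusted p = 8.08e-05), and p300, Fosl2, PU.1 and HDAC3 were called lower too. At Adgre1 only p65 (1.96 ± 0.19, or 0.73 and not called with TMM scaling) and Fosl2 (1.88 ± 0.69) were called higher, while PU.1 was at 238 and 241 with Veh and 241 and 247 with KLA. Ccl3, with no call for ERK1, had p65 at 76.2 and 123 with Veh and 492 and 579 with KLA (2.43 ± 0.24, adjusted p = 1.10e-05).

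H3K27ac was higher at promoters with ERK1 than at those without. H3K27ac tags were counted at open chromatin regions, which need not be acetylated. Such a region had its centre within 500 bp of 81.4% of ERK1 promoter peaks. The 3475 promoter regions with an ERK1 promoter peak had H3K27ac medians of 22.1 and 23.4 tags per 10 M in the WT Veh libraries. In the WT KLA libraries these were 25.2 and 26.9. The 6381 without one had 13.9, 14.8, 15.1 and 15.9, below the former in each library, at a median region width of 305 bp against 320 bp. From Veh to KLA, 158 of 2894 tested regions at ERK1 promoters were called higher (6.49% of all H3K27ac regions were) and 62 lower (3.72% were), with a median log2 fold change of 0.23. TMM scaling gave 112 higher and 91 lower, and without WT Veh replicate 1 or 2 the total of 220 calls became 141 or 130. Only 62 of the 115 promoters where ERK1 was called higher (53.9%) had an H3K27ac region, against 82.6% of those where it was not called. At the 59 of these regions that were tested, H3K27ac was called higher at 15 and lower at 4, with a median of 0.61. The promoters without a region were not measured. Under TMM scaling 895 of all 18504 H3K27ac regions were called higher and 959 lower. The 5106 tested promoter regions without an ERK1 promoter peak had 214 called higher and 120 lower with library totals. At Ptgs2, H3K27ac had 5.04 and 4.58 with Veh and 28.3 in both KLA libraries (2.54 ± 0.55, adjusted p = 0.000685), and at Itgal 36.6 and 32.1 with Veh and 71.1 and 109 with KLA (1.39 ± 0.28, adjusted p = 0.000322).

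Between NKO and WT, few H3K27ac regions were called anywhere, and the shares at ERK1 promoters were near those over all regions or below them. With KLA, NKO against WT gave 2 of 2894 regions called higher (0.400% of all) and 10 lower (0.389% of all), with a median of −0.04. At Ptgs2 the WT libraries had 28.3 in both and the NKO libraries 10.1 and 13.9 (log2 fold change −1.24 ± 0.50, adjusted p = 0.226), which missed the threshold. The 12 calls became 21 and 5 without WT KLA replicate 1 or 2, and 5 and 3 without NKO KLA replicate 1 or 2.

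The HDAC3 inhibitor RGFP966 gave the most calls on H3K27ac at these promoters, though the sets of libraries differed in depth. A promoter region held a median of 71 to 132 H3K27ac tags in the DMSO and RGFP966 libraries. In the WT and NKO libraries it held 26 to 35, and in the PGC1b libraries 119 to 252. With RGFP966 and KLA against DMSO and KLA, 113 of 2822 regions were called higher (26.9% of all H3K27ac regions were) and 693 lower (9.53% were), with a median of −0.65. The regions at other ERK1 peaks went the other way, with 3419 higher and 106 lower of 9316 and a median of 0.75. Promoter regions without an ERK1 promoter peak did as those with one. Of 4974 tested, 175 were called higher and 1391 lower, with a median of −0.66. At the 58 promoters where ERK1 had been called lower with KLA, 13 were called higher and 8 lower with a median of 0.16, but 9 higher and 15 lower with a median of −0.19 under TMM scaling. Cebpa was among those called higher, with 55 and 41.2 with DMSO and 103 and 100 with RGFP966 (1.06 ± 0.24, adjusted p = 5.75e-05), and was not called under TMM scaling (0.72). Over all ERK1 promoters, under TMM scaling 71 promoter regions were higher and 1402 lower. Under the same scaling 4031 of all 25045 H3K27ac regions were called higher and 4742 lower. In PGC1b flox/flox, LysMCre BMDMs with KLA, H3K27ac was called higher at 4 of 2836 regions (0.702% of all) and lower at 85 (6.81% of all), with a median of −0.38. TMM scaling turned this into 13 higher and 8 lower with a median of 0.01, and without the first LysMCre KLA library the calls were 137 in place of 89. Under TMM scaling 478 of all 25197 regions were called higher with LysMCre and 273 lower. The 5106 tested promoter regions without an ERK1 promoter peak had 16 called higher and 143 lower with library totals. Adgre1 was lower with LysMCre, at 489 and 490 in the flox/flox libraries and 227 and 233 with LysMCre (−1.09 ± 0.09, adjusted p = 1.57e-27), and with TMM scaling it was not called (−0.70).

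To ask whether ERK activity bears on its partners at these promoters, BMDMs had been given an ERK inhibitor with KLA. NCoR was called lower at 1164 of 3089 ERK1 promoters (48.6% of all NCoR regions were called lower) and higher at 2 (0.634% were called higher), with a median log2 fold change of −0.94. TMM scaling gave 25 lower and 88 higher and a median of 0.23, so that the direction of the whole set rested on scaling by library totals. Over all 57573 NCoR regions TMM scaling gave 1946 lower and 1985 higher. The 3494 NCoR promoter regions without an ERK1 promoter peak had 1114 called lower and 17 higher with library totals. Their median was −0.94, as at ERK1 promoters. The inhibitor libraries carry another library date than the KLA libraries, which have no DMSO label. Date, any solvent and treatment cannot be told apart. For PGC1β the inhibitor libraries were compared with DMSO and KLA libraries of the same date. Without KLA replicate 1 or 2 the 1166 calls became 529 or 616.

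By gene, NCoR at Ptgs2 had 165 and 158 with KLA and 68.5 and 44.8 with ERKi_KLA (−1.51 ± 0.27, adjusted p = 0.000757), and at Adgre1 464 and 370, then 122 and 143 (−1.65 ± 0.19, adjusted p = 8.68e-05). With TMM scaling neither was called, at −0.35 (adjusted p = 0.400) and −0.48 (adjusted p = 0.0695). PGC1β gave 1 higher call and 0 lower among 2966 ERK1 promoters (0.108% and 0.178% of all PGC1β regions were called higher and lower), and the call was lost without any 1 of the 4 libraries. At Ptgs2, PGC1β had 124 and 125 with DMSO and KLA and 145 and 138 with ERKi_KLA (0.19 ± 0.37, adjusted p = 0.857). At Ptgs2 the 2 groups of NCoR libraries did not overlap on the scale of library totals, with date, any solvent and treatment not told apart. PGC1β was not called there, against a DMSO control, so the 2 factors were set against unlike controls.

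To ask how ERK1 at promoters changed in cells put through osteoclast differentiation, Day4 was compared with Day0. ERK1 was called higher at 25 promoter peaks (1.06%), where 2.33% of all ERK1 peaks were, and lower at 0, where 0.0267% of all were (4 peaks). The authors' peak caller had listed 1446 promoter peaks (61.1%) at Day4 only, 595 (25.1%) at Day0 only and 326 (13.8%) at both. Those 326 had 0 calls in either direction and a median log2 fold change of 0.58. Peaks listed at 1 day only were chosen by levels in the same libraries, which favours that day. Its part in the calls was not tested. The median log2 fold change was 0.82 at promoters and 1.03 at other peaks. It reached −0.14 and 0.06 with TMM scaling. Under this scaling no ERK1 peak was called, at promoters or elsewhere, as with DESeq2. Of the promoter peaks, 576 had an unadjusted p under 0.05 in edgeR's test with library totals and 311 with TMM scaling. No promoter peak was called higher without either Day4 library, and 126 or 129 were without Day0 replicate 1 or 2. Day4 replicate 2 carries a replicate number of 3 and a later date in its library name. The Day4 libraries had 6.46% and 4.50% of their tags in peaks and the Day0 libraries 2.79% and 2.98%, and the part of this share in the higher Day4 levels was not tested.

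The peaks with the lowest p were at genes of mixed roles. Nfkbid, encoding the nuclear inhibitor IκBNS, had 2.58 and 2.10 tags per 10 M at Day0 and 65.3 and 41.8 at Day4 (log2 fold change 4.42 ± 0.79, adjusted p = 0.0217). Brip1os had 0.861 and 2.10 at Day0 and 31.1 and 41.8 at Day4, a ratio of 26.2 with a 95% counting interval of 8.50 to 131. Med23, a Mediator subunit, had 9.47 and 10.5 at Day0 and 87.1 and 43.0 at Day4 (2.68 ± 0.64, adjusted p = 0.0379). All of these had their groups apart, and the 2 Day4 libraries differed widely at Med23.

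Znrf1, a ubiquitin ligase gene, had 4.3 and 9.46 at Day0 and 109 and 34.6 at Day4 (3.37 ± 0.72, adjusted p = 0.0296). Vnn3, a pantetheinase, had 2.58 and 6.30 at Day0 and 48.2 and 35.8 at Day4 (3.23 ± 0.74, adjusted p = 0.0379). The long non-coding gene 4930404N11Rik had 34.4 and 31.5 at Day0 and 199 and 139 at Day4 (2.35 ± 0.48, adjusted p = 0.0280). The remaining named promoters were Zfp672 (2.58 and 4.20, then 74.7 and 20.3), Gm36738 (5.17 and 0, then 40.4 and 41.8), Hibch (6.03 and 0, then 76.2 and 23.9) and Ttc30a2 (4.3 and 3.15, then 37.3 and 34.6). None of the 10 was called with TMM scaling.

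**Figure D5:**
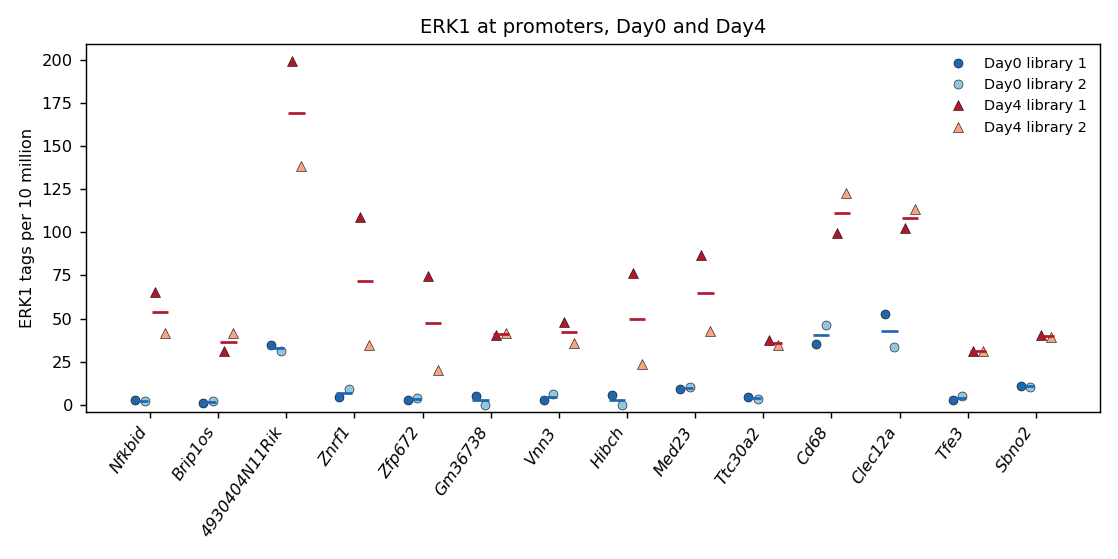
ERK1 tags per 10 M mapped tags at the named promoters in the comparison of Day4 with Day0, with 1 point per library (circles for Day0, triangles for Day4) and a bar at the mean of each group. Both Day4 points lie above both Day0 points at the promoters called higher, such as Nfkbid, and the 2 Day4 points are far apart at Znrf1, Zfp672 and Hibch.

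Of 36 osteoclast genes, 7 (19.4%) had promoter peaks in this table, beside 9.86% of protein-coding genes, and 0 were called, with a median of 0.98. No promoter of the 10 osteoclast markers (Acp5, Ctsk and others) had an ERK1 peak, although 25 ERK1 peaks away from promoters were assigned to 9 of them, with 0 calls and a summed level of 560 and 545 tags per 10 M at Day0 and 1024 and 743 at Day4. Tfe3, a relative of Mitf, had 2.58 and 5.25 at Day0 and 31.1 in both Day4 libraries (2.97 ± 0.80, adjusted p = 0.0504), and Sbno2, a corepressor needed for osteoclast fusion, had 11.2 and 10.5 at Day0 and 40.4 and 39.4 at Day4 (1.86 ± 0.65, adjusted p = 0.0862). p300 was found at 5 of the 10 osteoclast marker promoters, with a summed 84.4 and 97.9 at Day0 and 363 and 311 at Day4. Of these 6 regions 5 were called higher, where 62.2% of all p300 regions were, and 0 with TMM scaling. At macrophage marker promoters p300 was called higher at 3 of 9 regions and lower at 0, or at 0 and 2 with TMM scaling. Of 12 macrophage markers, 9 had ERK1 promoter peaks here, with a summed level of 222 to 268 at Day0 and 407 to 583 at Day4. The highest mean level was at 4930404N11Rik, followed by both promoter peaks of Sirpa, an inhibitory receptor gene, and by Cd68 (35.3 and 46.2, then 99.6 and 123, adjusted p = 0.0787) and Clec12a (52.5 and 33.6, then 103 and 113, adjusted p = 0.0958).

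p300 at the ERK1 promoters of the Day0 and Day4 table was called higher at 251 of 1282 regions (62.2% of all p300 regions were) and lower at 4 (0.248% were), with a median of 0.81. TMM scaling gave 5 higher and 177 lower with a median of −0.80 (1773 and 771 of all 20143 p300 regions). The 1678 p300 promoter regions without an ERK1 promoter peak had 363 called higher and 3 lower with library totals. The total of 255 calls was 431 and 503 without Day0 replicate 1 or 2, and 24 and 33 without Day4 replicate 1 or 2. Where ERK1 was called higher, p300 was called higher at 1 of 8 regions. Clec12a was called for p300, with 20.2 and 25.5 at Day0 and 180 and 136 at Day4 (2.82 ± 0.38, adjusted p = 0.000232), but not with TMM scaling (1.21, adjusted p = 0.0539).

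Against base composition the Day4 comparison had no gradient like that of KLA. The promoter medians in the 7 GC bins lay between 0.77 and 0.89, and the difference from other peaks between −0.26 and −0.07. Over all peaks promoters were lower than other peaks by 0.20, and in peaks called at both days by 0.12. Promoters held 15.7% and 15.5% of tags in ERK1 peaks at Day0 and 14.3% and 13.6% at Day4 (two-sided exact permutation p = 0.333, the smallest possible).

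The promoters common to both tables were found by centres within 500 bp. They made up 1386 of the 4026 promoter peaks of the Veh and KLA table (34.4%) and 1351 of the 2367 of the Day0 and Day4 table (57.1%). With centres within 100 bp the shares were 26.8% and 45.5%, and within 1000 bp 36.0% and 58.7%. Other ERK1 peaks were shared at 37.1% and 69.0%. By name, 1317 genes had a promoter peak in both tables, 34.7% of the genes of the first and 57.4% of the second.

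Shared promoters carried more ERK1, with a median of 37.7 tags per 10 M against 25.6 at promoters of the Veh and KLA table only, and 25.1 against 21.8 in the Day0 and Day4 table. ERK1 was called higher with KLA at 24 shared promoters (1.73%) and at 91 unshared ones (3.45%), and lower at 21 (1.52%) and 58 (2.20%). At Day4 it was called higher at 15 shared promoters (1.11%) and 10 unshared ones (0.984%). No shared promoter was called in both tables. Cd68 and Clec12a were among the shared promoters, with 128 to 202 tags per 10 M in the BMDM libraries and 33.6 to 123 in the Day0 and Day4 libraries.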

How the data were processed

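The 100 samples formed 50 groups of 2, of which 70 ChIP libraries were used and 30 input samples were not. Factors were crosslinked with DSG and formaldehyde, H3K27ac with formaldehyde alone. The deposited tables hold raw tag counts per merged region, made by the authors with Bowtie2, HOMER and mm10 per the submitters' processing notes, which also name DESeq2. At most 3 tags per position were counted. Per the methods, reproducible (IDR) peaks came from the 2 best-correlated samples of a condition, a choice that can narrow the spread between replicates, and were merged over conditions. H3K27ac tags were counted at open chromatin (ATAC-seq) regions, for the RGFP966 and PGC1b tables in 1000 bp windows.

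Counts were tested with edgeR 4.0.16 (R 4.3.3; glmQLFit and glmQLFTest) over all libraries of a table, with library sizes from the column headers and no further scaling, on regions with at least 4 tags (16 for H3K27ac) in 1 or more libraries. Calls needed a Benjamini-Hochberg adjusted p under 0.05 over all tested regions and more than 2-fold. Levels are tags per 10 M mapped tags, SE is the log2 fold change over the root of F, and intervals (95%) and floors (3 tags over a group) cover counting error only. Regions were matched by centres within 500 bp. DESeq2 1.42.0, TMM scaling, DESeq2 size factors, a replicate block, other limits and leaving out each library were alternatives, the split by GC content and by peak calls being added after seeing the data. Python 3.11.15, pandas 2.3.3, numpy 2.4.6, scipy 1.17.1 and matplotlib 3.10.9 did the rest, and the scripts were tested on simulated data. Listed distances were within 10 bp of those to RefSeq starts at 94.9% and 94.6% of promoter peaks.

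Genes named are, in each ERK1 table, the 10 called higher and 8 called lower with the lowest p, the 5 of highest level, and the 3 of lowest p in each gene list. Further members are named after their values were seen, and 1 gene that the rule names is not reported here. Members, lists and rules were chosen with earlier results of these data known. The labels call the replicates biological without naming cultures or animals, so p-values measure only the spread between samples, which may be technical. Same-numbered replicates did not deviate together (31 correlations from −0.026 to 0.081), so they were not paired.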

Additional observations from a re-analysis of the deposited data

How the results depend on the processing

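TMM scaling moved the calls at ERK1 promoters from 115 to 70 (higher with KLA), 79 to 131 (lower with KLA), 25 to 0 (higher at Day4), and, for other measurements, from 848 to 1820 (p65), 669 to 1378 (p300), 113 to 297 (Fosl2), 271 to 175 (PU.1), 1166 to 113 (NCoR with ERKi), 806 to 1473 (RGFP966) and 89 to 21 (PGC1b LysMCre). DESeq2 size factors in edgeR gave 69 higher and 123 lower with KLA and 0 higher at Day4. DESeq2's Wald test gave 157 lower with KLA, 0 higher at Day4, 1793 for p65, 1263 for p300, 361 for Fosl2, 175 for PU.1, 31 for p300 at Day4, 175 for NCoR with ERKi, 11 for PGC1β with ERKi, 1389 for RGFP966 and 16 for PGC1b LysMCre. A limit of 2000 bp gave 334 higher and 139 lower with KLA and 52 higher at Day4. Centres within 100 bp gave 0 calls for PGC1β with ERKi and 6 for NKO. The replicate block, with which same-numbered libraries are paired, gave 16 calls for Fosl2, 129 for p300 at Day4, 0 for PGC1β with ERKi and 104 higher and 55 lower for ERK1 with KLA. The difference of medians between promoter and other ERK1 peaks with KLA moved from −0.5062 to −0.0032 in peaks called in both conditions and to −0.0036 within GC bins, and that at Day4 from −0.2045 to −0.1198 in peaks called at both days. The causes of the other changes were not tested.

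Leaving out 1 library at a time gave 19 to 143 higher and 24 to 92 lower calls with KLA, 0 to 129 higher and 0 to 2 lower at Day4, 437 to 957 for p65, 0 to 660 for Fosl2, 266 to 745 for NCoR, 98 to 665 for HDAC3, 75 to 493 for PGC1β, 24 to 503 for p300 at Day4, 529 to 1165 for NCoR with ERKi, 0 for PGC1β with ERKi, 130 to 222 for H3K27ac with KLA, 3 to 21 for NKO and 109 to 137 for PGC1b LysMCre. The difference of medians ran from −0.5065 to −0.4803 with KLA and from −0.2618 to −0.1652 at Day4. Neither difference changed sign when a library was left out, while several medians over promoters did under TMM scaling, as given beside them. Among counts of calls, counts of shared promoters and the differences of medians, 112 values stayed near the first and 78 did not. The limit was 1.5 times for counts and the spread between replicates for the differences of medians. Single named promoters kept their side of the threshold in 673 cases, lost the call in 113 and gained one in 14. Of the motif shares, 37 moved and 28 did not with a window of 100 bp. A promoter held a median of 17 to 25 ERK1 tags per library, and the part of depth in these counts was not tested.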
